A study of Mus musculus with 4 samples.

Results

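The type I interferon response genes described here are 39 interferon-stimulated genes fixed by name, of which 38 were found among the 27998 genes of the count files (*Mx2* was not among them). They were followed one by one and as a set in immune cells of mouse skeletal muscle recovering from injury. Control mice carried *Bach1* alleles with loxP sites around exon 4, written Bach1 fl/fl, and KO mice carried the same floxed alleles together with Lyz2-Cre, a recombinase expressed from the *Lyz2* locus, which is active in monocytes, macrophages and neutrophils and little or not in T or NK cells. Groups are named by these labels. *Bach1* encodes a heme-binding transcriptional repressor. All mice were C57BL/6 males of 8 to 12 weeks whose tibialis anterior, a lower leg muscle, was injected with cardiotoxin, and the injured muscles were collected at 2 or 4 days post-injury (dpi2 and dpi4). CD45-positive leukocytes were enriched with magnetic beads and profiled by droplet single-cell 3′ RNA sequencing, in 1 library for each of the 4 groups.

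Type I interferons bind a receptor made of IFNAR1 and IFNAR2, whose kinases phosphorylate STAT2. With IRF9 it takes part in the complex ISGF3, which binds a DNA element called the ISRE and switches on the genes described here. Their products include a transcription factor that amplifies the response (IRF7), a brake on the receptor (USP18), sensors of foreign nucleic acids, and proteins that block viral entry, translation or budding. In sterile tissue injury no virus is present, and myeloid cells that take up debris are a known site of this response.

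To show what the members share beyond their name, their promoters were read from the RefSeq table of GRCm38.p6, which covers 250 bases before to 50 bases after a gene's start and held 30 of the 39 listed members by symbol. The ISRE core was searched as GAAANNGAAA on both strands. It was found in 17 of the 30 member genes (56.7%), against 3.99% of all 27025 genes in the table. The GAS element, known from interferon-induced genes, was searched as TTCNNNGAA on both strands and was found in 7 of the 30 member genes (23.3%), against 9.55% of all genes. It shared a promoter with the ISRE core in 4 members, and letters of both motifs can overlap. A match describes the letters of this window only. The 7 stretches printed here are each 60 bases long and read 5′ to 3′ on the gene's strand. They come from members whose levels are followed in every class, with *Ifit1* added as a relative of *Ifit3*. They lie upstream of the RefSeq start, and capitals mark each ISRE core that lies whole in the stretch.
Isg15, chr4:156200850-156200909, minus strand: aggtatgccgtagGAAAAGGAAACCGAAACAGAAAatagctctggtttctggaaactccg
Ifit1, chr19:34640779-34640838, plus strand: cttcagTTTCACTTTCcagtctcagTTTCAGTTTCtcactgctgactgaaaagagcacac
Ifit3, chr19:34583382-34583441, plus strand: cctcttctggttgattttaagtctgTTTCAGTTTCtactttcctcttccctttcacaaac
Rsad2, chr12:26456538-26456597, minus strand: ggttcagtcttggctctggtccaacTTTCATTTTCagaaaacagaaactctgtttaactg
Stat2, chr10:128270251-128270310, plus strand: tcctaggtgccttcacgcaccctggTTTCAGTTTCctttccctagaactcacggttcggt
Bst2, chr8:71537562-71537621, minus strand: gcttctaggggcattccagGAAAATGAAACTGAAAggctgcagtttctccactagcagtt
Lgals9, chr11:78984945-78985004, minus strand: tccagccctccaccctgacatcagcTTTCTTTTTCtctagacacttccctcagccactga

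In the *Isg15* stretch 3 ISRE cores overlap in 1 run, and those of *Ifit1* and *Bst2* hold 2 each. The motif at the centre of each stretch began 66 bases before it in *Isg15*, 85 in *Ifit1*, 122 in *Ifit3*, 120 in *Rsad2*, 222 in *Stat2*, 124 in *Bst2* and 55 in *Lgals9*. Several members lie near each other in the genome: *Ifit2* (chr19:34550694-34576419), *Ifit3* (chr19:34583531-34588731) and *Ifit1* (chr19:34640871-34650009) share a region, and *Rsad2* (chr12:26442746-26456452) and *Cmpk2* (chr12:26469204-26479837) lie side by side. Some have close relatives in the genome (the *Ifit*, *Oas*, *Slfn* and *Ifi200* families), so reads shared between relatives could be lost or split in the authors' counting.

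The 4 libraries held 4177 to 6602 barcodes and 57010520 to 80228489 UMIs, and 3433 to 5721 cells per library were kept, with median depths of 10702 to 15157 UMIs. Libraries shared at most 14 barcodes. The share of barcodes over 10% mitochondrial UMIs was 8.10% in the control and 6.61% in the KO at dpi2, and 15.4% and 19.9% at dpi4. *Bach1* did not separate the libraries, at 189 and 187 CPM (counts per 1000000 UMIs) in all barcodes at dpi2 and 207 and 217 CPM at dpi4 in control and KO, respectively. The tags come from the 3′ end of transcripts, where exon 5 is the last exon, so that they do not check the deletion of exon 4. *Lyz2* itself was at 9388 and 15845 CPM in the control libraries and at 17.5 and 21.6 CPM in the KO libraries. Loss of *Bach1* function and loss of *Lyz2* therefore cannot be told apart in this design.

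Each group was 1 library, so nothing was replicated and no test was run. UMIs were summed over all cells of a class in a library and given as CPM, each interval in parentheses is a 95% interval for counting error alone (exact Poisson for a level, exact conditional binomial for a ratio), and a log2 ratio is the KO over the control library unless stated otherwise. A gene is called lower or higher by a rule of size when the ratio was at least 2-fold, the interval left out no change and the pair of libraries held at least 50 UMIs. Such calls describe these libraries, and what varies between animals was not measured. Medians over members use those with at least 20 UMIs in the pair.

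The members were lower in the KO library at dpi2 in every class compared, and at dpi4 the sums of the 2 genotypes lay closer in the macrophages, monocytes, neutrophils and dendritic cells, some of them higher in the KO. In macrophages the summed members stood at 6174 CPM (6149 to 6199) in the control library at dpi2, where the KO library held 3167 (3147 to 3187), and at 3925 and 3827 CPM at dpi4. In monocytes they stood at 16422 and 8607 CPM at dpi2 and at 12295 and 15025 CPM at dpi4. Neutrophils showed the widest gap, with 17846 CPM in the control and 5698 in the KO at dpi2, while the dpi4 libraries held 2607 CPM (2445 to 2776) in the control against 2925 (2598 to 3281) in the KO. In the dpi2 control *Lyz2*, whose locus drives Cre, was at 1943 CPM in dendritic cells and at 1605 CPM in neutrophils. The members of dendritic cells stood at 11662 and 6507 CPM at dpi2 and at 5274 and 4560 CPM at dpi4. The control library at dpi2 was thus the highest of the 4 in macrophages, monocytes, neutrophils and dendritic cells. These values rest on 1873, 1039, 2985 and 2558 macrophages in the control and KO at dpi2 and the control and KO at dpi4. The same order of libraries held 2583, 988, 53 and 66 monocytes, 632, 822, 128 and 35 neutrophils, and 316, 242, 402 and 434 dendritic cells.

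**Figure D1:**
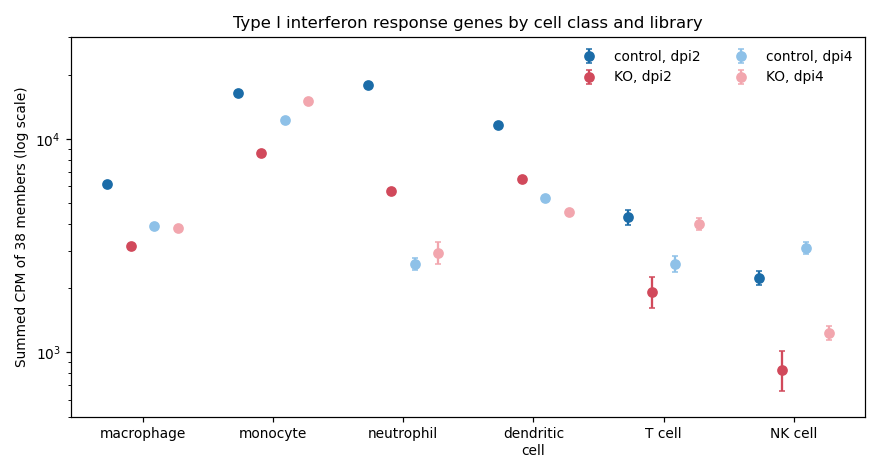
Summed CPM of the 38 measured members (log axis) for 6 cell classes, with 1 point per library and bars for the 95% Poisson interval. In each class the KO point lies below the control point at dpi2. At dpi4 the monocyte and T cell points of the KO lie above the control, and the NK cell point lies below it.

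As a log2 ratio the summed members at dpi2 were at -0.96 (-0.97 to -0.95) in macrophages, -0.93 (-0.94 to -0.92) in monocytes, -1.65 (-1.67 to -1.62) in neutrophils and -0.84 (-0.86 to -0.82) in dendritic cells. *Ifitm3*, a membrane protein that stops viruses from fusing with endosomes, was the most abundant member and made up between 16.9% and 49.9% of the member UMIs in these 4 classes. Without *Ifitm3* the summed ratios were -0.93, -1.12, -1.64 and -1.12. In macrophages all 38 members were below 0 at dpi2 with a median of -1.01, where the median of all 12150 genes scored was -0.01. The rule of size called 20 of the 38 lower, against 2.13% of all 11109 genes with enough UMIs, and called none higher, against 2.29%. In monocytes all 38 were below 0 with a median of -1.12, 23 were called lower, against 2.74% of all genes, and none higher, against 1.79%. In neutrophils all 37 members scored were below 0 with a median of -1.67, 34 of 35 were called lower, against 6.71% of all genes, and none higher, against 2.45%. The median of all genes in neutrophils was itself at -0.32, and the members' median was -1.35 relative to it. In dendritic cells all 38 were below 0 with a median of -1.14, 26 were called lower, against 1.29% of all genes, and none higher, against 1.39%.

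At dpi4 the same ratios lay near 0. The median over the 38 members was -0.14 in macrophages, 0.24 in monocytes and -0.25 in dendritic cells, and it was 0.02 over the 20 members scored in neutrophils. In macrophages no member was called lower, against 1.49% of all genes, and 1 was called higher, against 0.994%. In monocytes 1 of 37 was called lower, against 1.79%, and 2 higher, against 1.83%. In neutrophils, where 6 members had enough UMIs, none was called lower or higher, against 4.48% and 1.99% of all genes. In dendritic cells none of 37 was called lower or higher, against 0.686% and 0.720%. These counts were low, as were the shares among all genes. Separate clustering of each library, which gave 20 control and 221 KO monocytes at dpi4, turned the monocyte median to -0.35, with 7 of 38 members called lower, against 6.16% of all genes under that grouping.

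Across the 4 classes at dpi2, 15 members were called lower in all 4: *Irf7*, *Stat2*, *Usp18*, *Zbp1*, *Ifit1*, *Ifit2*, *Ifit3*, *Oas3*, *Oasl1*, *Rsad2*, *Cmpk2*, *Isg15*, *Herc6*, *Bst2* and *Slfn4*. Of the 35 members with enough UMIs in all 4 classes, 15 were called lower in 4 classes, 6 in 3, 6 in 2 and 8 in 1. Of all 5462 genes with enough UMIs in all 4 classes, 0.384% (21 genes, the 15 members included) were called lower in 4 classes, 0.458% in 3, 0.659% in 2 and 5.51% in 1. *Ifi205*, a DNA-binding protein of the PYHIN family, was called lower in none. Its level in monocytes was nevertheless 242 CPM in the control and 121 in the KO, just short of 2-fold.

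Among the signalling members, *Irf7* (chr7:141262706-141266481), the transcription factor that amplifies interferon production, stood at 186, 62.5, 162 and 192 CPM in the macrophages of the control and KO at dpi2 and the control and KO at dpi4. The KO library at dpi2 was the low one of the 4, and both dpi4 libraries were close to the dpi2 control. The ratio was -1.57 (-1.65 to -1.5) at dpi2 and, for dpi4, 0.24 (0.20 to 0.29). In monocytes *Irf7* followed the same course, at 527, 212, 410 and 651 CPM, with a ratio of -1.31 (-1.37 to -1.26) and then of 0.67 (0.41 to 0.93). In neutrophils it stood at 508 and 124 CPM at dpi2 and at 61.9 (39.2 to 92.8, 23 UMIs) and 40.3 CPM (11.0 to 103, 4 UMIs) at dpi4, so that the order of the dpi4 libraries was not resolved at this depth, and in dendritic cells at 374, 139, 163 and 171 CPM. *Usp18*, which removes ISG15 from proteins and damps receptor signalling, was at 72.1, 27.3, 37.3 and 32.2 CPM in macrophages and at 144, 55.3, 151 and 160 CPM in monocytes. *Stat2*, the ISGF3 subunit, was at 50.1, 22.6, 49.1 and 44.9 CPM in macrophages, with a dpi2 ratio of -1.15 (-1.28 to -1.02) and a dpi4 ratio of -0.13 (-0.21 to -0.04). *Irf9*, the DNA-binding subunit of ISGF3, moved least of the group at dpi2, at -0.47 (-0.56 to -0.38) in macrophages, -0.41 in monocytes and -0.25 (-0.47 to -0.03) in dendritic cells, and reached the 2-fold limit in neutrophils alone, at -1.25 (-1.54 to -0.97). In all, 3 of the 4 signalling members were called lower at dpi2 in macrophages (2.13% of all genes), monocytes (2.74%) and dendritic cells (1.29%) and 4 of 4 in neutrophils (6.71%), and at dpi4 none was called in macrophages, monocytes or dendritic cells, while in neutrophils none had enough UMIs to be called.

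**Figure D2:**
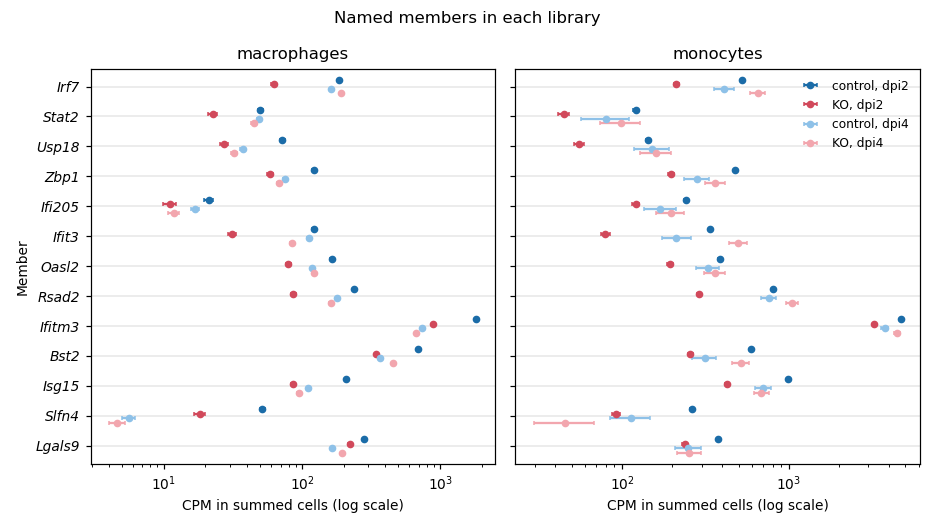
CPM of the 13 members followed in every class (log axis) in macrophages and monocytes, with 1 point per library and bars for the 95% Poisson interval. In monocytes the dpi2 KO point is the lowest of the 4 for every member shown but *Slfn4*, by a narrow margin for *Lgals9*. *Slfn4* is lowest in the dpi4 KO in both classes.

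The 7 nucleic acid sensors had a median of -0.79 in macrophages at dpi2, and 1 of 7 was called lower, against 2.13% of all genes. This was *Zbp1*, a sensor of Z-form nucleic acids that can start necroptosis, at 122 CPM in the control and 59.0 in the KO and a ratio of -1.04 (-1.12 to -0.96). At dpi4 *Zbp1* was at 74.9 and 68.0 CPM. In monocytes 3 of 7 sensors were called lower at dpi2, against 2.74% of all genes, with a group median of -1.0. These were *Ifih1*, *Ddx58* and *Zbp1*, the first 2 encoding the RNA helicases MDA5 and RIG-I. In dendritic cells the same 3 were called, against 1.29% of all genes, with a median of -0.95. In neutrophils 6 of the 6 with enough UMIs were called lower, against 6.71%, with a median of -1.84. *Ifi204*, a sensor of DNA, showed how far classes could differ, at -0.50 (-0.54 to -0.45) in macrophages, -0.69 in monocytes, -0.95 in dendritic cells and -2.76 (-2.97 to -2.56) in neutrophils. *Eif2ak2*, the kinase PKR that stops translation, was at -0.56 in macrophages and -1.84 in neutrophils.

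The RNA-binding effectors included the lowest ratio of macrophages. *Ifit3*, which with its relatives binds foreign RNA lacking the host cap, stood at 122, 31.4, 112 and 85.1 CPM in macrophages. Its ratio there, -1.96 (-2.07 to -1.86), was the lowest of the members at dpi2, and at dpi4 it was -0.40 (-0.46 to -0.34). In monocytes *Ifit3* was at 338, 79.5, 212 and 497 CPM, so the KO library was the lowest of the 4 at dpi2 and the highest at dpi4, with ratios of -2.09 (-2.18 to -2.0) and, at dpi4, 1.23 (0.89 to 1.57). The dpi4 value rests on 53 and 66 cells, and with monocytes and macrophages pooled it was -0.33. In neutrophils *Ifit3* was at 713, 77.5, 48.4 and 10.1 CPM, the last 2 from 18 UMIs and 1 UMI, and in dendritic cells at 237, 74.6, 98.2 and 52.9 CPM. *Ifit2* was at -1.63 (-1.77 to -1.49) in macrophages at dpi2 and at -3.0 in neutrophils, where *Ifit3* was lowest of the members with enough UMIs (-3.20) and *Xaf1*, which promotes cell death, next (-3.13). *Oasl1*, which limits translation of *Irf7*, was at -1.70 (-1.85 to -1.55) in macrophages, and *Oasl2*, an OAS-like protein, at 165, 79.9, 119 and 122 CPM, with a dpi2 ratio of -1.04 (-1.11 to -0.98). Among the synthetases that activate RNase L, *Oas3* was called lower in all 4 classes and *Oas1a* in neutrophils alone. Of the 9 effectors, 6 were called lower in macrophages at dpi2 (2.13% of all genes), 6 in monocytes (2.74%), 9 in neutrophils (6.71%) and 8 in dendritic cells (1.29%). The lowest member in dendritic cells was *Cmpk2*, at -2.01 (-2.52 to -1.53), followed by *Rsad2*, at -1.88 (-2.06 to -1.70).

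Of the 8 measured membrane and other antiviral effectors, 7 were called lower in macrophages at dpi2 (2.13% of all genes), 7 of the 7 with enough UMIs in neutrophils (6.71%), and 6 each in monocytes (2.74%) and dendritic cells (1.29%). *Rsad2*, which encodes viperin, an enzyme that makes a chain-terminating nucleotide, was at 237, 86.7, 179 and 162 CPM in macrophages and at 805, 291, 757 and 1041 CPM in monocytes. Its ratio at dpi2 was -1.45 (-1.52 to -1.39) in macrophages, with intervals that overlap those of monocytes (-1.47, -1.52 to -1.42) and neutrophils (-1.42, -1.52 to -1.32). *Cmpk2*, its neighbour and a nucleotide kinase, was at -1.58 in macrophages and -2.05 (-2.18 to -1.91) in monocytes. *Isg15* (chr4:156199424-156200818), a ubiquitin-like protein attached to other proteins, was at 210, 86.2, 111 and 95.3 CPM in macrophages, 989, 426, 704 and 686 in monocytes, and 1494, 437, 167 and 272 in neutrophils. *Bst2*, or tetherin, which holds budding virions at the cell surface, was at 692, 345, 370 and 458 CPM in macrophages, and was the member whose ratio was positive with an interval above 0 in macrophages (0.31), monocytes (0.72) and dendritic cells (0.26) at dpi4. *Ifitm3* (chr7:141009586-141010770) was at 1832, 890, 737 and 667 CPM in macrophages, 4730, 3228, 3759 and 4457 in monocytes and 4575, 3246, 1896 and 1675 in dendritic cells. Its dpi2 ratio was -1.04 (-1.06 to -1.02) in macrophages and -1.67 (-1.74 to -1.61) in neutrophils, but -0.55 (-0.57 to -0.54) in monocytes and -0.49 (-0.53 to -0.46) in dendritic cells. *Trim30a*, a regulator of inflammatory signalling, was at -0.62 in macrophages, the one member of the group not called there.

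**Figure D3:**
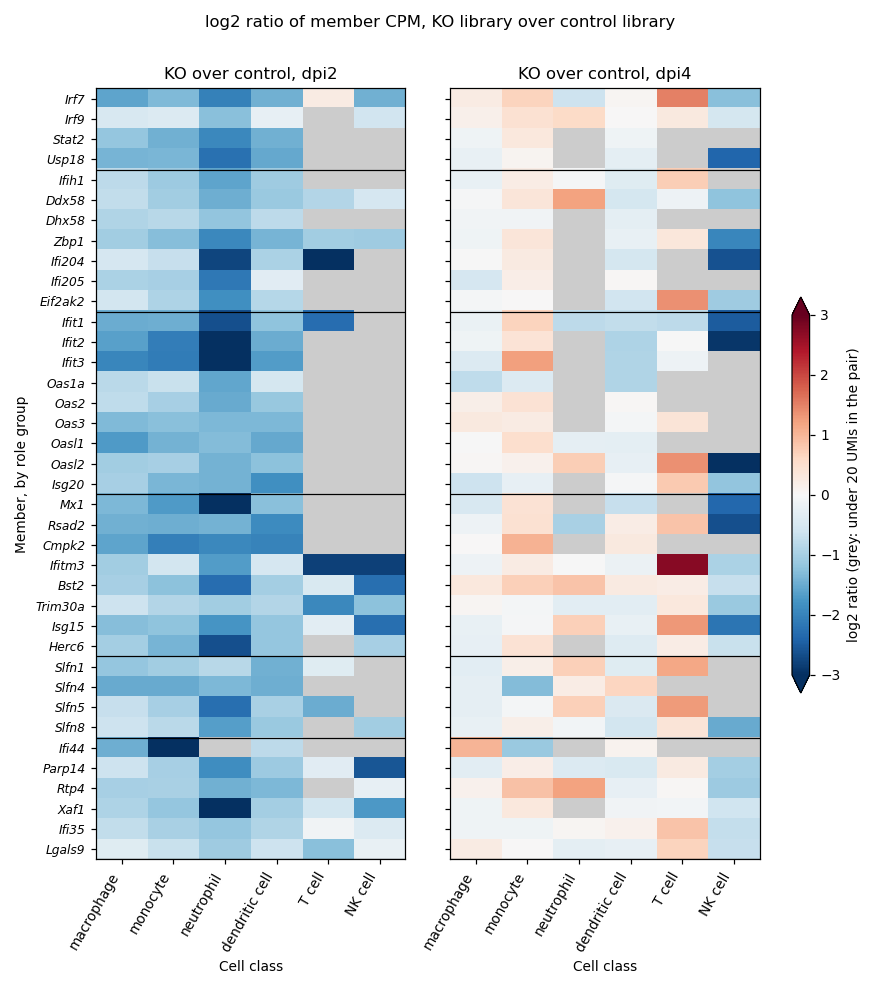
log2 ratio of CPM, KO over control, for each of the 38 members (rows, divided by role group) in 6 classes at dpi2 (left) and dpi4 (right). Grey marks pairs with under 20 UMIs. In the macrophage, monocyte, neutrophil and dendritic cell columns every scored value is below 0 at dpi2, and values of both signs are seen at dpi4.

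The Schlafen genes are a family of growth regulators and RNA cleaving proteins. At dpi2, 2 of the 4 were called lower in KO macrophages, against 2.13% of all genes. In monocytes (2.74%), neutrophils (6.71%) and dendritic cells (1.29%) 3 of the 4 were. In macrophages over time (dpi4 over dpi2) 1 of the 4, *Slfn4*, was called lower in either genotype, against 6.01% of all genes in the control and 5.00% in the KO. None was called higher, against 9.74% and 8.81%. The group median over time was -0.55 in the control and 0.08 in the KO macrophages. *Slfn5* was at 162, 99.8, 138 and 114 CPM there. *Slfn4* (chr11:83175186-83190216), which is expressed by myeloid cells and is lost as macrophages mature, was at 51.6, 18.2, 5.58 and 4.61 CPM in macrophages, so that both dpi4 libraries were below both dpi2 libraries. In neutrophils it was at 1275, 504, 86.1 and 101 CPM. In monocytes it was at 262, 92.3, 114 and 45.8 CPM and was the one member called lower in the KO at dpi4, at -1.31 (-2.05 to -0.60). With monocytes and macrophages pooled it was at -0.35 and not called, and at a minimum of 200 UMIs in the pair no member was called lower. *Slfn1* was the single member of those with enough UMIs not called lower in neutrophils at dpi2, at -0.83 (-0.92 to -0.74), while *Slfn5* was at -2.25 there and at -0.70 in macrophages. Among the remaining members, *Lgals9*, the galectin-9 gene, showed the smallest ratio in macrophages at dpi2, at -0.36 (-0.40 to -0.31), with 283, 221, 165 and 195 CPM. *Irf9* was next, at -0.47. *Ifi44*, a cytoplasmic protein of unclear function, was scarce at 4.51, 1.64, 16.6 and 33.6 CPM in macrophages. It was lower in the KO at dpi2 (-1.46, -1.95 to -0.99) and was the one member called higher in macrophages at dpi4 (1.01, 0.90 to 1.13). In monocytes it had the lowest ratio of the members at dpi2, -3.0 (-3.68 to -2.40), with 13.3, 1.66, 39.9 and 18.3 CPM. The macrophage call at dpi4 was lost with at least 200 genes per barcode, without doublet removal, with every cell weighing the same, with monocytes and macrophages pooled, and with separate clustering of each library.

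The difference at dpi2 was also followed per cell. Each cell was thinned to 2000 UMIs, and the member UMIs were counted per cell. The median cell held 11 member UMIs in control and 5 in KO macrophages at dpi2, with 10th to 90th percentiles of 4 to 25 and 1 to 14. Monocytes held 30 and 13 (14 to 55 and 5 to 36), neutrophils 23 and 6 (5 to 80.5 and 1 to 29) and dendritic cells 21 and 12 (7 to 48 and 3 to 27). At dpi4 the medians were 5 and 6 in macrophages, 13 and 20 in monocytes, 3 and 3 in neutrophils and 7 and 7 in dendritic cells. In each of these 4 classes the 10th percentile, the median and the 90th percentile of the KO all lay below those of the control at dpi2. Thinning left out 166 of the 632 control and 54 of the 822 KO neutrophils at dpi2 for lack of depth, and at most 59 cells in any other class and library.

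**Figure D4:**
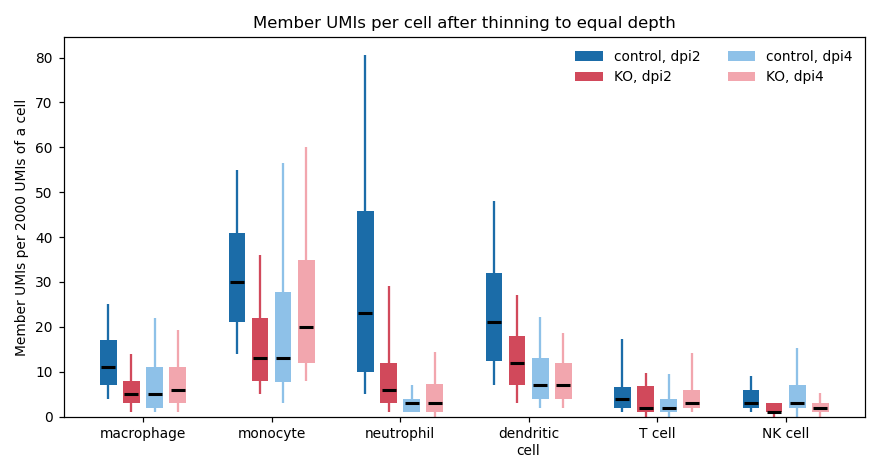
Member UMIs per cell after thinning each cell to 2000 UMIs, by class and library. Boxes span the 25th to 75th percentile, lines the 10th to 90th, and black marks are medians. In macrophages, monocytes, neutrophils and dendritic cells the median at dpi2 is lower in the KO than in the control (5 against 11 in macrophages).

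Because different states made up each class in the 2 genotypes, the members were also compared within the clusters of cells that had been formed without them. The largest cluster of control macrophages at dpi2 was led by *Htr2b* and *Pdpn* (1212 cells, 186 in the KO), whereas a cluster led by *Ppbp* and *Cd163* held 448 control and 318 KO cells. The largest cluster of control monocytes at dpi2 was the *Klra2* and *Ifitm6* cluster (1463 and 229 cells), and that of KO monocytes was the *Dmkn* and *Vcan* cluster (309 and 495 cells). At dpi4 the largest single cluster was the *Hpgd* and *Gpr34* cluster for control macrophages (1307 of 2985, with 368 in the KO) and the *Spic* and *Slc40a1* cluster for KO macrophages (871 of 2558, with 68 in the control). By the naming rule, a cluster with more markers of a foreign class than of its own among its 10 leading genes stayed unnamed. That count is therefore no check of the names, and these macrophage clusters had no marker of any class there.

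Within clusters the members were lower in the KO at dpi2 in 10 of the 10 macrophage, monocyte, neutrophil and dendritic cell clusters described that had at least 20 cells in both libraries, with summed ratios from -1.65 to -0.37. The *Klra2* and *Ifitm6* monocytes showed one of the smaller differences, with 18753 CPM in the control and 13330 in the KO, a ratio of -0.49 (-0.51 to -0.48) and 4 of 38 members called lower, against 1.34% of all genes there. In the *Dmkn* and *Vcan* monocytes the ratio was -0.87 (-0.89 to -0.85), with 26 of 37 members called lower, against 2.40%, and in the *F10* and *Cd177* monocytes -0.78, with 14 of 38 called, against 1.94%. The *Ppbp* and *Cd163* macrophages held the highest level among the macrophage clusters compared at dpi2, with 9021 CPM in the control and 4187 in the KO, a ratio of -1.11 (-1.13 to -1.09) and 25 of 38 members called lower, against 2.19%. A cluster led by *Il1f9* and *Pdcd1lg2* stayed unnamed, although neutrophil markers were its best match, and held 86 control and 480 KO cells at dpi2. Its members were at 3155 and 1520 CPM, a ratio of -1.05 (-1.17 to -0.94), with 13 of 21 called lower, against 8.92%.

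At dpi4 the clusters did not move one way. Of 12 clusters compared, 5 had a summed ratio with an interval below 0, 4 above 0 and 3 across 0. The 4 above 0 were all macrophages. In the cluster led by *Spic*, a transcription factor of iron-recycling macrophages, and *Slc40a1*, the iron exporter, the members stood at 1730 CPM in the 68 control cells and 3770 CPM in the 871 KO cells, a ratio of 1.12 (1.07 to 1.18), with all 38 members above 0 and 22 of 37 called higher, against 2.41% of all genes. The *C4b* and *Ccl8* cluster held 5861 and 7795 CPM, a ratio of 0.41 (0.38 to 0.44), with 7 of 38 called higher, against 2.01%. In the *Fam26f* and *Hpgd* cluster the sign was opposite, with 6009 CPM in the control and 4688 in the KO, a ratio of -0.36 (-0.38 to -0.34) and 4 of 38 called lower, against 0.903%. The dendritic cells led by *Xcr1* were at 4177 and 2991 CPM, a ratio of -0.48 (-0.56 to -0.41), with 7 of 23 called lower, against 0.847%. The value near 0 for all macrophages at dpi4 was thus a sum over clusters of both signs, and the *Spic* cluster, which was mostly KO cells, was below the *Hpgd* and *Gpr34* cluster of the control (4592 CPM) in level.

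**Figure D5:**
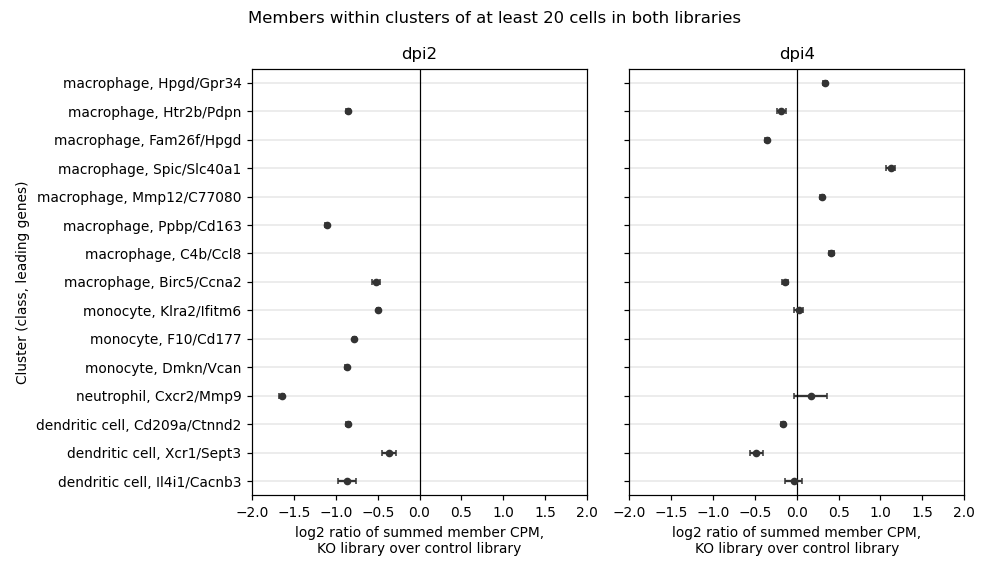
log2 ratio of the summed member CPM, KO over control, within each described cluster of macrophages, monocytes, neutrophils and dendritic cells with at least 20 cells in both libraries, at dpi2 (left) and dpi4 (right). Bars are 95% intervals for counting error. All 10 points at dpi2 lie below 0, and the *Spic*/*Slc40a1* macrophages lie farthest above it at dpi4.

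Dendritic cells depended on how cells were grouped. Under separate clustering of each library the dpi2 comparison rested on 53 control and 293 KO cells, the median over members was -0.60 in place of -1.14, and of 38 members 10 were called lower, against 5.37% of all genes under that grouping, and 2 higher, against 11.0%. These were different kinds of dendritic cells. The 53 control cells were a cluster led by *Cacnb3* and *Zmynd15*, while the KO cells were 273 of a cluster led by *Cd209a* and 20 of one led by *Fscn1*, and the 260 control cells led by *Cd209a* stayed unnamed. Within the joint clusters, the *Cd209a* and *Ctnnd2* dendritic cells (259 control and 197 KO cells) were at 12855 and 7113 CPM at dpi2, a ratio of -0.85 (-0.88 to -0.83), and the *Xcr1* dendritic cells, with 33 and 20 cells, were at -0.37 (-0.45 to -0.29).

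T cells were few, with 29 control and 14 KO cells at dpi2 and 39 and 52 at dpi4. At dpi2 their summed members stood at 4300 CPM (3967 to 4653) for the control and 1915 (1620 to 2249) for the KO, a ratio of -1.17 (-1.43 to -0.91). At dpi4 the order turned, with 2590 CPM (2378 to 2816) for the control against 4005 (3758 to 4265) for the KO, a ratio of 0.63 (0.48 to 0.78). At dpi2, 3 members had enough UMIs, of which *Ifitm3* (-2.80, -4.05 to -1.77) and *Trim30a* (-1.92, -3.31 to -0.77) were called lower, against 4.53% of all 640 genes, and none was called higher, against 3.75%. Without doublet removal 4 of 6 were called lower at dpi2, against 8.04%. Without the highest cell of each library 1 of 1 was, against 4.65%, and no member reached 200 UMIs in the pair. At dpi4, *Ifitm3* (2.72, 1.88 to 3.68), *Irf7* (1.52, 0.60 to 2.54) and *Isg15* (1.30, 0.71 to 1.93) were called higher of 10, against 2.75%, and none lower, against 2.68%. *Ifitm3* stood at 718, 103, 61.4 and 406 CPM across the 4 libraries. These values rest on few cells. At dpi4 a single cell held 25% of the member UMIs of control T cells and another 31.8% of those of KO T cells, and without the highest cell of each library the summed ratio was 0.53 (0.35 to 0.71). Macrophage markers in T cells summed to 585 CPM in the control library at dpi2, or 6.77% of their level in the whole library, and to 154 CPM (1.64%) in the KO, so at dpi2 they were higher where the members were higher. At dpi4 they summed to 1607 CPM (4.34%) and 1308 CPM (4.40%). With that share of the whole library's RNA subtracted from each T cell sum, the median over members was -0.88 at dpi2 and 0.39 at dpi4, against -0.88 and 0.38 without subtraction. The counts were again 2 of 3 lower at dpi2, against 3.94% of all genes, and 3 of 10 higher at dpi4, against 3.12%. Without doublet removal, which left 49 control and 59 KO T cells at dpi4, none of the 3 members was called higher and *Ifitm3* and *Isg15* were at -0.40 and -0.01.

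In NK cells the members were lower in the KO at both time points. The 73 control and 22 KO cells at dpi2 held 2239 (2079 to 2408) and 825 (662 to 1017) CPM, a ratio of -1.44 (-1.78 to -1.12), and the 39 control and 80 KO cells at dpi4 held 3093 (2900 to 3294) and 1234 (1143 to 1330) CPM, a ratio of -1.33 (-1.47 to -1.18). All 15 members scored at dpi2 and all 24 at dpi4 were below 0, with medians of -1.06 and -1.19. At dpi2, 4 of 4 members with enough UMIs were called lower (*Ifitm3*, *Bst2*, *Parp14* and *Trim30a*), against 4.71% of all genes, and none higher, against 0.912%. At dpi4, 6 of 10 were called lower, against 2.46%, and none higher, against 1.13%. These were *Isg15* (-2.20, -2.89 to -1.55), *Zbp1* (-1.96, -2.76 to -1.21), *Ddx58*, *Trim30a*, *Eif2ak2* and *Parp14*. Without doublet removal 8 of 15 were called lower at dpi2, against 3.34%, and 14 of 24 at dpi4, against 4.63%, while at 200 UMIs in the pair no member had the depth to be called at either time. *Isg15* was at 89.7, 18.8, 231 and 50.4 CPM, so that the dpi4 control stood above the other 3 libraries. Without the highest cell of each library the summed ratios were -1.48 (-1.84 to -1.14) and -1.34 (-1.49 to -1.19). Macrophage markers were at 3.90%, 2.78%, 3.81% and 3.64% of their library level in the control and KO NK cells of dpi2 and then of dpi4. With that share subtracted, the medians were -1.03 and -1.34. Then 3 of 3 members were called lower at dpi2, against 4.73% of all genes, and 6 of 10 at dpi4, against 2.62%. In dpi4 NK cells *Ifng*, the interferon that NK cells make, was at 1276 CPM in the control and 45.0 in the KO, and *Cxcl10*, an interferon-induced chemokine, at 1067 and 45.0.

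Between dpi2 and dpi4 the summed members took opposite signs in the 2 genotypes in macrophages and monocytes, a difference that was not tested. These comparisons reuse the libraries of the ones above, and they set different clusters of macrophages side by side. The *Htr2b* cluster held 1212 control and 186 KO cells at dpi2 but 67 and 72 at dpi4, the *Hpgd* and *Gpr34* cluster 13 and 12 and then 1307 and 368, and the *Spic* cluster 0 and 2 and then 68 and 871. Over time (dpi4 over dpi2) the summed members of macrophages were at -0.65 (-0.66 to -0.65) for the control libraries and at 0.27 (0.26 to 0.28) for the KO libraries. In control macrophages 3 members were called lower over time, against 6.01% of all genes, and 2 higher, against 9.74%. In KO macrophages 1 was called lower, against 5.00%, and 6 higher, against 8.81%. In the control these counts were near the share among all genes. The lowest in the control were *Slfn4* (-3.21) and *Ifitm3* (-1.31), and the highest were *Ifi44* (1.88) and *Ifit2* (1.11). In the KO, *Ifi44* (4.36), *Ifit2* (2.60), *Irf7* (1.62), *Ifit3* (1.44), *Cmpk2* (1.33) and *Oas3* (1.28) were higher at dpi4, and *Slfn4* was lower at -1.98. In monocytes the ratio over time was -0.42 in the control, with 1 member called lower, against 1.74%, and 1 higher, against 4.39%. In the KO it was 0.80 (0.77 to 0.84), with 1 called lower, against 3.21%, and 16 of 37 higher, against 5.68%. The highest with enough UMIs were *Cmpk2* (2.74), *Ifit3* (2.64) and *Ifit2* (2.63). The median over members of the KO monocytes was 0.91 over time, and it was 0.23 with separate clustering of each library.

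The summed members of neutrophils were lower at dpi4 in both genotypes, while in dendritic cells the KO values were mixed. In neutrophils the ratio over time was -2.78 (-2.87 to -2.68) in the control, with 32 of 34 members called lower, against 6.46% of all genes, and none higher, against 8.57%. In the KO it was -0.96 (-1.13 to -0.79), with 10 of 32 called lower, against 3.90%, and *Bst2* (1.42, 0.51 to 2.21) called higher, against 13.2%. The lowest in the control were *Ifit2* (-5.21) and *Slfn4* (-3.89). In dendritic cells the ratio was -1.14 (-1.17 to -1.12) in the control, with 17 of 38 called lower, against 2.95%, and none higher, against 4.23%. The median over members was -0.93 there, and -0.34 with separate clustering of each library. In the KO the ratio was -0.51, but -0.18 without *Ifitm3*, and the median over members was -0.23 with 13 of 38 above 0. There 1 was called lower (*Slfn4*, -1.74), against 2.26%, and 1 higher (*Cmpk2*, 1.59), against 4.24%, counts near the share among all genes. *Slfn4* was called lower over time in each of these 4 classes in both genotypes.

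The rest of the pathway was read from 4 further lists. Of the ligands, *Ifnb1* had 10, 3, 9 and 0 UMIs in all barcodes of the 4 libraries, and *Ifna1*, *Ifna2*, *Ifna4*, *Ifna5*, *Ifnl2* and *Ifnl3* had none in any library, which allows up to 3 UMIs each. *Ifng* had 55, 10, 461 and 64. The receptors and signalling genes moved little in macrophages at dpi2, with a median of 0.09 over 15 genes, none called lower and 1 higher, against 2.13% and 2.29% of all genes. The receptor genes *Ifnar1* and *Ifnar2* were at 101 and 118 CPM and at 97.4 and 126 CPM in the control and KO. *Socs3*, an inhibitor of cytokine receptors, was higher in the KO macrophages at dpi2 (1.52) and lower at dpi4 (-1.13), with 28.9, 82.9, 128 and 58.6 CPM. Of the 14 genes for sensing upstream of interferon, such as the Toll-like receptors and their adaptors, 12 and 13 had enough UMIs in macrophages at dpi2 and dpi4. None was called lower, against 2.13% and 1.49% of all genes, or higher, against 2.29% and 0.994%. In monocytes at dpi2 *Tlr3* and *Tlr9* were called lower of 13, against 2.74%. In neutrophils at dpi2 the median of this list was -0.60 and 2 of 8 were called lower, against 6.71% of all genes. These were *Mb21d1* (-1.19), which encodes the DNA sensor cGAS, and *Adar* (-1.04), an RNA-editing enzyme. *Trex1* was listed at 0 in every library.

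Other interferon-inducible genes, a list of 19 of which 18 were measured, were lower with the members at dpi2. In macrophages their median was -0.71, with 4 of 17 called lower, against 2.13% of all genes, and 1 higher, against 2.29%. It was -0.96 in monocytes with 8 of 18 lower, against 2.74%, -1.97 in neutrophils with 12 of 14 lower, against 6.71%, and -0.93 in dendritic cells with 6 of 18 lower, against 1.29%. No gene of the list was called higher in these 3 classes. In macrophages those called were *Ly6a* (-2.06), *Ifi27l2a* (-1.52), *Ms4a4c* (-1.33) and *Phf11d* (-1.16), and *Ccl5*, a chemokine, was called higher at low levels (2.43 and 8.80 CPM). *Cxcl10* in monocytes was at 893, 374, 769 and 1694 CPM, lower in the KO at dpi2 (-1.26) and higher at dpi4 (1.14). At dpi4 the list's median was -0.01 in macrophages, 0.22 in monocytes and 0.06 in dendritic cells.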

How the data were processed

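Mouse muscle leukocytes were profiled by 3′ single-cell RNA sequencing in 4 libraries (1 library per group). The authors deposited raw UMI counts per gene and barcode, made with Cell Ranger 6.1.2 on mm10 per the labels, and no value was normalized. The labels name the v2 and the study's methods the v3.1 chemistry of the kit. The lowest barcode totals of the files were 500 or 501 UMIs.

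Barcodes with at least 500 genes and at most 10% mitochondrial UMIs were kept, and the barcodes with the highest Scrublet scores (100 to 289 per library, a share growing with the number of cells) were removed as doublets. Cells of all libraries were clustered together without integration (scanpy 1.11.5, leidenalg 0.10.2; 2000 variable genes without the members and pathway lists, 30 components, 15 neighbours, resolution 1), giving 26 clusters named from 84 matched marker genes. The study used miQC, scDblFinder, Harmony and SingleR, so class sizes can differ from its own. UMIs were summed per class and library, and the depth of each sum sets its interval, which covers counting error only. As an alternative for T and NK cells, free RNA was subtracted at the share set by macrophage markers. The ratio step was tested on simulated data.

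Named members were 13 fixed ones and, per class and comparison, the 2 highest and 2 lowest ratios among those with at least 50 UMIs and every member called in the direction taken by fewer. Others are named where a role group or list is described. Results that concern 1 cluster and 1 gene of these lists are not reported here. The members, lists, markers and rules were chosen with earlier results of these data known. Promoters came from RefSeq (GRCm38.p6) and gene positions from GENCODE M21 (GRCm38). The study describes these animals as individual mice, not bone marrow chimeras, with 1 per group.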

Additional observations from a re-analysis of the deposited data

Results flagged for a closer look

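Some differences between genotypes took opposite signs at the 2 time points or in 2 classes. None of these contrasts was tested, as each group was 1 library. In macrophages *Ifi44* had a log2 ratio (KO over control) of -1.46 at dpi2 and 1.01 at dpi4. In monocytes the summed members went from -0.93 at dpi2 to 0.29 at dpi4, *Ifit3* from -2.09 to 1.23 and *Cmpk2* from -2.05 to 1.05, and the dpi4 values rest on 53 and 66 cells. With separate clustering of each library *Cmpk2* was at -0.22 and the median over members at -0.35 at dpi4, and with monocytes and macrophages pooled *Ifit3* was at -0.33. In T cells the summed members went from -1.17 to 0.63 and *Ifitm3* from -2.80 to 2.72, with 14 to 52 cells per library. At dpi4 *Isg15* was at -2.20 in NK cells and at 1.30 in T cells. Without doublet removal *Isg15* and *Ifitm3* in T cells at dpi4 were at -0.013 and -0.40.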

How the results depend on the processing

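Medians over members and counts called by the rule of size were recomputed under each alternative for the KO over control contrasts, and medians also over time. Of 140 medians and 190 counts, 128 and 153 stayed within counting error or within 1.5 times. Of 894 values of single members, 734 stayed within counting error, 156 moved beyond it and 4 changed sign. In what follows ratios are log2, KO over control, and the cause was not tested.

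With each library clustered by itself, the median in macrophages at dpi4 was -0.29, in monocytes at dpi4 -0.35 and in dendritic cells at dpi2 -0.60. Over time it was 0.24 in KO macrophages, 0.23 in KO monocytes and -0.34 in control dendritic cells. Counts, with the share of all genes, were then 1 lower (1.39%) and 0 higher (1.20%) in macrophages at dpi4, 7 lower (6.16%) and 0 higher (5.2%) in monocytes at dpi4, 1 higher (4.13%) in neutrophils at dpi4, 10 lower (5.37%) and 2 higher (11.0%) in dendritic cells at dpi2 and 3 lower (2.27%) at dpi4, and *Cmpk2* in monocytes at dpi4 was at -0.22. No T cells were named in 3 libraries and no NK cells in 1, so these classes gave no value, save NK cells at dpi2.

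With monocytes and macrophages pooled, the dpi2 median was -1.24 for both, no member was called at dpi4 (0 lower in place of 1 for monocytes, 0 higher for both) and *Ifit3* in monocytes at dpi4 was at -0.33. With at least 200 genes per barcode the members called higher at dpi4 were 0 in macrophages and 0 in monocytes. With every cell weighing the same they were 0 (1.15%) and 1 (1.89%), the dendritic cells had 1 lower at dpi4 (0.618%), and the KO macrophage median over time was 0.56.

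Without doublet removal, macrophages had 0 higher at dpi4 and a control median over time of -0.46, dendritic cells had 1 lower at dpi4, T cells 4 lower at dpi2 (8.04% of all genes) and 1 lower (2.91%) and 0 higher (2.59%) at dpi4, and NK cells 8 lower at dpi2 (3.34%) and 14 at dpi4 (4.63%). *Ifitm3* and *Isg15* in T cells at dpi4 were then at -0.40 and -0.013.

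At a 1.5-fold limit, members lower at dpi2 were 34 in macrophages and 36 in monocytes, against 6.0% and 6.65% of all genes. At dpi4, 2 were lower in macrophages (4.15% of all genes), 6 higher in monocytes (5.09%), 1 higher in neutrophils (4.61%), 6 lower in dendritic cells (2.15%) and 1 lower in T cells (6.98%). At 200 UMIs in the pair, monocytes at dpi4 had 0 lower (1.65%) and 1 higher (0.941%). T cells had 0 lower at dpi2 and 0 higher at dpi4, and NK cells 0 lower at either time, as no member had the depth in T or NK cells.

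With free RNA subtracted, the medians and counts of T and NK cells stayed within counting error or within 1.5 times. Centred on the median of all genes, the neutrophil median at dpi2 was -1.35. Chosen after seeing the data, counting the unnamed *Il1f9* cluster with the neutrophils gave -1.95, and leaving out the highest T cell of each library gave 1 of 1 lower at dpi2 (4.65% of all genes). No paired analysis was possible because each group held 1 library.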

Other observations

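Member UMIs were also read in 2 sets of cells outside the 6 classes. Plasmacytoid dendritic cells, the main makers of type I interferon, held 6928 CPM (6246 to 7664) in the control at dpi2 against 4872 (4370 to 5415) in the KO, and 5557 and 5165 CPM at dpi4, from 7, 7, 19 and 25 cells. *Bst2*, also known as a marker of these cells, made up between 53.3% and 69.4% of their member UMIs. Macrophage markers in them were at 2.97%, 3.16%, 18.9% and 3.22% of their level in the whole library, highest in the control at dpi4, and no free RNA was subtracted here.

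An unnamed cluster led by *Pf4* and *Cela1* stood at 7527 CPM in 83 control and 3195 in 43 KO cells at dpi2, a log2 ratio of -1.24 (-1.40 to -1.08).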
